A study of Mus musculus with 6 samples.

Results

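Acute phase proteins were followed here through the mRNA of 10 genes in mouse liver, which were the serum amyloid A genes Saa1, Saa2, Saa3 and Saa4, the orosomucoid genes Orm1, Orm2 and Orm3, and haptoglobin (Hp), C-reactive protein (Crp) and lipocalin 2 (Lcn2). They were chosen by name, as widely used acute phase reactants, out of 54532 genes with an Ensembl identifier in the deposited count table, and all 10 passed the filter on low counts. Liver came from wild-type mice, which the study's methods give as male C57BL/6J animals aged 8 weeks at the start. The HFD group (replicates 1 to 3) was fed a high-fat diet for 4 weeks and then for a further 4 weeks. The HFD+Allantoin-H group (replicates 4 to 6) had the same diet, with allantoin, a product of uric acid oxidation, in the drinking water during the last 4 weeks. The labels name concentrations of 0.06 and 0.3 mg/mL without tying either to a library, and the study's methods give 0.3 mg/mL for Allantoin-H. Both groups were fed the high-fat diet, and no liver from chow-fed mice was analysed here. Since nothing in the labels says that each library came from a mouse of its own, the p-values measure only the spread between these libraries, which may be technical.

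The acute phase response is the change in plasma proteins made by the liver after infection, injury or inflammation. Interleukin-6 acts on hepatocytes through its receptor (Il6ra and the shared chain gp130, encoded by Il6st), the Janus kinases and STAT3, while interleukin-1 and tumor necrosis factor act mainly through NF-kappaB, and C/EBP transcription factors bind the promoters of many of the responding genes. Hepatocytes are the main source of most of these proteins, and neutrophils and macrophages also make some of them, lipocalin 2 and Saa3 among them. In mice the serum amyloids and orosomucoids respond strongly to such signals, whereas Crp is a weak reactant.

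The 6 libraries held 11326372 to 14601457 counts. The share of counts on the mitochondrial chromosome was 36.5%, 20.2% and 17.9% in HFD replicates 1, 2 and 3, and 7.52%, 6.92% and 11.4% in HFD+Allantoin-H replicates 4, 5 and 6, so that this share differed between the groups without overlap. TMM scaling factors were 0.756 to 0.951 in HFD and 1.12 to 1.19 in HFD+Allantoin-H. Levels are given as CPM, each library's counts scaled to a common total after this normalization. Defining hepatocyte genes were abundant in every library, with Alb at 54402 to 82145 CPM.

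Of the 10 genes, 1 fell, none rose and 9 did not pass an adjusted p of 0.05 in edgeR's quasi-likelihood test. Hp was the gene that fell. Over all 12795 tested genes 24.3% were called, 11.3% as higher and 13.0% as lower in HFD+Allantoin-H, so that 1 of 10 was no larger a share than among genes at large. At an unadjusted p under 0.05, 1 gene was higher (Crp) and 2 were lower (Hp and Orm1), where 18.6% and 20.5% of all genes were higher and lower. DESeq2 called the same 3 genes in the same directions, and limma-voom called Crp higher and Hp lower. The estimates of 9 genes were below 0 and that of Crp was above it, although with scaling by library size alone those of Saa1 and Saa4 also lay above 0. The median log2 fold change of the 10 genes was -0.73, beside -0.03 for all tested genes. Leaving out 1 library at a time moved this median from -0.19, without HFD replicate 1, to -1.21, without HFD+Allantoin-H replicate 6. After removal of length and GC trends it was -0.38, beside -0.05 for all tested genes. With scaling by library size alone it was -0.28, beside 0.38 for all tested genes. The levels of the groups did not overlap for 2 of the 10 genes, Hp and Crp, while they did not overlap for 44.3% of all tested genes. In whole liver, fewer cells of a type and less RNA per cell cannot be told apart.

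**Figure D1:**
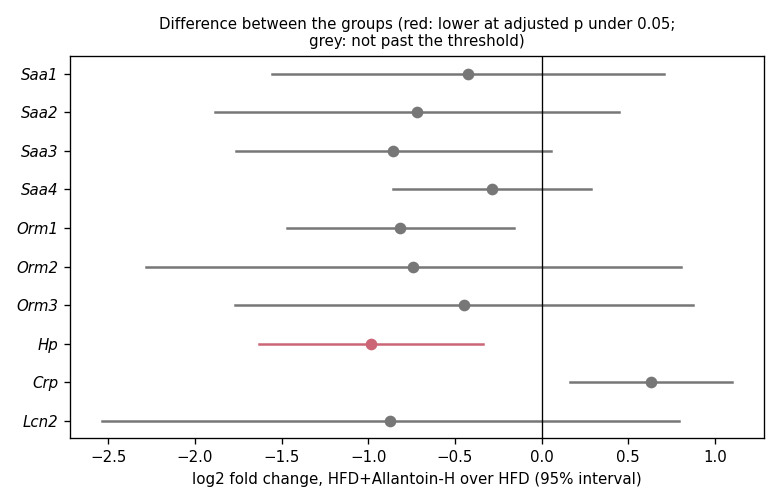
Log2 fold change of each acute phase gene, HFD+Allantoin-H over HFD (horizontal axis), with its 95% interval as a line and 1 gene per row. The interval of Hp lies below 0 and is drawn in red as past the adjusted threshold, the intervals of Orm1 and Crp also leave out 0 but are grey, and those of the other 7 genes include 0, with Lcn2 and Orm2 the widest.

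Haptoglobin, the plasma protein that binds free hemoglobin, was measured at 7339, 5181 and 4003 CPM in HFD replicates 1, 2 and 3 and at 2414, 2272 and 3673 CPM in HFD+Allantoin-H replicates 4, 5 and 6. Every HFD library was above every HFD+Allantoin-H library, and the nearest were HFD replicate 3 and HFD+Allantoin-H replicate 6. The means were 5508 ± 1692 and 2786 ± 771 CPM (SD, n = 3 each). Hp (chr8:109575128-109579172, minus strand, GRCm38) thus fell 1.98-fold, by 0.98 on the log2 scale, with an SE of 0.29, a 95% interval of -1.63 to -0.34 and an adjusted p of 0.0362 in edgeR. This call was lost without HFD replicate 1 (-0.72, adjusted p = 0.084), HFD replicate 2 (-1.02, adjusted p = 0.0575), HFD+Allantoin-H replicate 4 (-0.88, adjusted p = 0.132) or HFD+Allantoin-H replicate 5 (-0.85, adjusted p = 0.141), while its direction did not change. Scaling by library size alone (-0.54, adjusted p = 0.153) and removal of trends in transcript length and GC content (-0.68, adjusted p = 0.118) also ended it. The level of Hp and the share of mitochondrial counts put the 6 libraries in the same order, from HFD replicate 1 down to HFD+Allantoin-H replicate 5. With the mitochondrial chromosome left out of the table, the log2 fold change of Hp was -0.98 with an adjusted p of 0.0324. This step moved the median of all tested genes by only -0.00025, so it says nothing about a link of Hp with the mitochondrial share. Such a link was not tested.

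The serum amyloid A genes lie together on chromosome 7 (GRCm38), with Saa3 at chr7:46711998-46715700, Saa4 at chr7:46727998-46732603 and Saa1 at chr7:46740497-46742980 on the minus strand and Saa2 at chr7:46751790-46754313 on the plus strand. Saa1 and Saa2 encode the main acute phase forms, which travel with high-density lipoprotein. Their coding sequences were identical at 95.1% of bases and differed at 18 of 369, with a longest shared run of 73 bases, so that reads may have been divided between them in a way that the count table does not show. The 60 bases in which they differ most are shown from the GENCODE M21 transcripts, with the 7 bases that differ in capitals.
Saa1, coding bases 90 to 149: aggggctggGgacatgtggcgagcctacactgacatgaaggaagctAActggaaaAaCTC
Saa2, coding bases 90 to 149: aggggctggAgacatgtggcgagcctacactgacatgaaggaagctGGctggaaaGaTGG

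Saa1 was at 204, 76.8 and 130 CPM in HFD replicates 1 to 3 and at 73.7, 46.4 and 186 CPM in HFD+Allantoin-H replicates 4 to 6. The highest library was in HFD, the next was HFD+Allantoin-H replicate 6, and the groups overlapped. The log2 fold change was -0.42 (SE 0.50, 95% interval -1.55 to 0.71, adjusted p = 0.567), and it was 0.012 with scaling by library size alone. Without HFD+Allantoin-H replicate 6 it was -1.19 and without HFD replicate 2 -0.71, while it was -0.02 without HFD replicate 1, -0.07 without HFD+Allantoin-H replicate 5 and -0.23 without replicate 4, and it was called in none of these. Saa2 ran in parallel, at 121, 29.3 and 83.2 CPM in HFD and 33.1, 28.6 and 79.8 CPM in HFD+Allantoin-H. Its log2 fold change was -0.72 (SE 0.52, 95% interval -1.88 to 0.45, adjusted p = 0.333), which became -1.33 without HFD+Allantoin-H replicate 6, -1.11 without HFD replicate 2, -0.45 without HFD+Allantoin-H replicate 5 and -0.26 without HFD replicate 1, again with no call. The ratio of Saa1 to Saa2 counts was 1.56 to 2.62 over the 6 libraries. The 2 genes summed, which does not depend on how reads were divided between them, gave a log2 fold change of -0.52 (adjusted p = 0.473).

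Saa3, the form made largely by macrophages and other cells outside hepatocytes, was low in every library, at 11.0, 5.33 and 16.8 CPM in HFD and 5.35, 4.79 and 8.23 CPM in HFD+Allantoin-H. These levels rest on 54 to 201 counts per library. The groups overlapped because HFD replicate 2 was as low as the HFD+Allantoin-H libraries. The log2 fold change was -0.86 (SE 0.40, 95% interval -1.77 to 0.05, adjusted p = 0.149), and it was -1.19 with an adjusted p of 0.033 without HFD replicate 2 and -0.41 with an adjusted p of 0.437 without HFD replicate 3. Saa4, the constitutive form, was at 471, 416 and 276 CPM in HFD and at 293, 251 and 410 CPM in HFD+Allantoin-H. The groups overlapped over most of their ranges. Its log2 fold change was -0.29 (SE 0.25, 95% interval -0.86 to 0.28, adjusted p = 0.437) and was 0.15 with scaling by library size alone. It was -0.51 without HFD+Allantoin-H replicate 6, -0.48 without HFD replicate 3, -0.13 without HFD+Allantoin-H replicate 5 and -0.12 without HFD replicate 1, with no call. Saa4 was the least like the others in sequence, with 65.7% to 67.3% of coding bases identical to Saa1, Saa2 and Saa3.

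**Figure D2:**
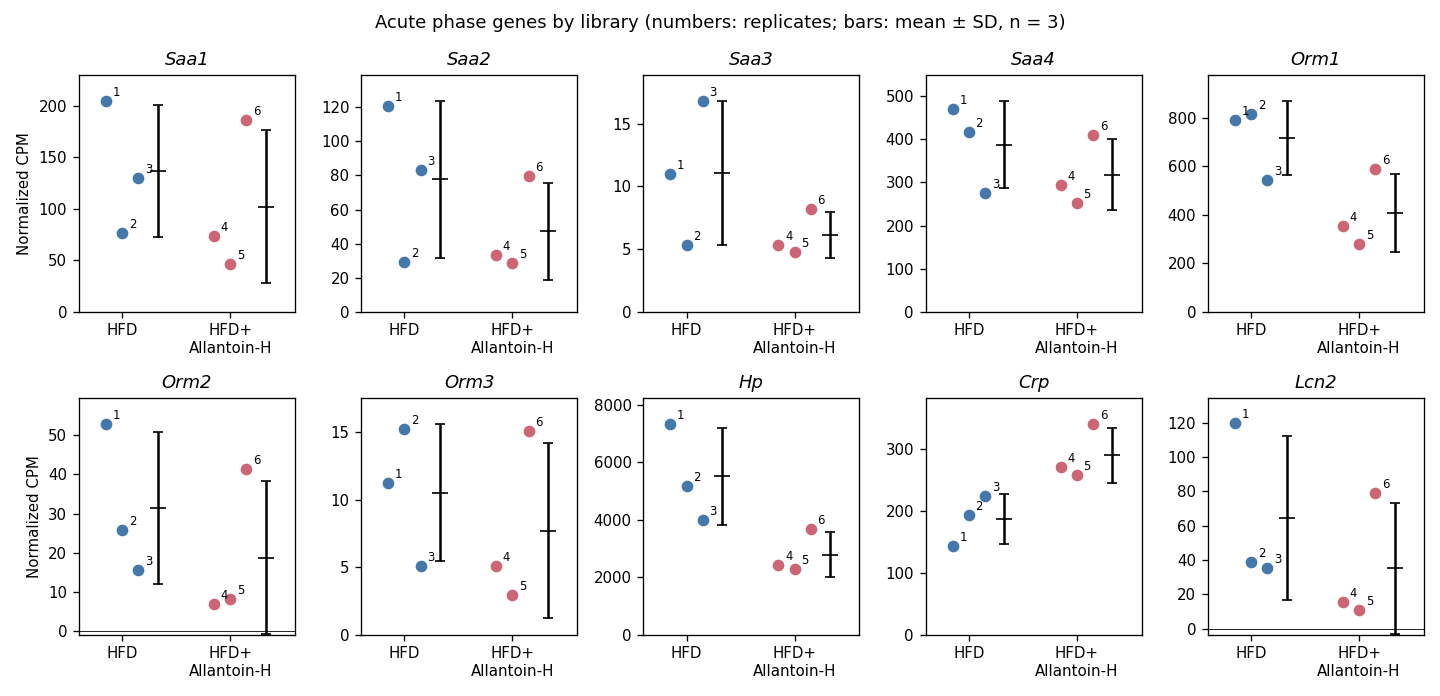
Normalized CPM of each acute phase gene (vertical axes, on a scale of its own per panel) in the 3 HFD and 3 HFD+Allantoin-H libraries, with numbers giving the replicate and black bars the mean and SD. For Hp every HFD point lies above every HFD+Allantoin-H point and for Crp below, and in all 10 panels replicate 6 is the highest point of HFD+Allantoin-H.

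The orosomucoids are the alpha-1-acid glycoproteins, plasma carriers of basic and neutral drugs and lipids. Their genes lie side by side on the plus strand of chromosome 4 (GRCm38), Orm1 at chr4:63344560-63348163, Orm3 at chr4:63356162-63359511 and Orm2 at chr4:63362449-63365878. Orm1 gave 91.3% to 96.8% of the counts of the 3 genes, whose transcripts are 773 to 775 bases long. Orm1 and Orm2 were identical at 89.9% of coding bases, with a longest shared run of 104 bases. The 60 bases in which the 2 coding sequences differ most are shown, with capitals for 17 of the 63 bases that differ. Elsewhere the 2 are more alike, and how reads were divided between the abundant Orm1 and the rare Orm2 is not known.
Orm1, coding bases 138 to 197: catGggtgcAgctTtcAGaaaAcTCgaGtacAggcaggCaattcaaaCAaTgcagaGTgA
Orm2, coding bases 138 to 197: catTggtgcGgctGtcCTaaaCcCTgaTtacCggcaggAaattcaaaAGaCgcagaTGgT

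Orm1 was at 793, 817 and 542 CPM in HFD replicates 1 to 3 and at 355, 279 and 589 CPM in HFD+Allantoin-H replicates 4 to 6. HFD+Allantoin-H replicate 6 was above HFD replicate 3, and the other HFD+Allantoin-H libraries were below every HFD library. The log2 fold change was -0.81 (SE 0.29, 95% interval -1.47 to -0.16), with an adjusted p of 0.0696. DESeq2 gave an adjusted p of 0.0234 for the same gene, and in edgeR it was 0.0294 without HFD+Allantoin-H replicate 6 (-1.18) and 0.0355 without HFD replicate 3 (-0.98). The adjusted p was larger with scaling by library size alone (-0.39, adjusted p = 0.322). It was also larger after removal of length and GC trends (-0.51, adjusted p = 0.222). Without HFD replicate 1 or 2 it was 0.152 and 0.158, and without HFD+Allantoin-H replicate 4 or 5 it was 0.211 and 0.229.

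Orm2 was at 53.1, 25.7 and 15.5 CPM in HFD and at 6.74, 8.10 and 41.4 CPM in HFD+Allantoin-H. Replicates 4 and 5 were below every HFD library and replicate 6 was above all but HFD replicate 1. Its log2 fold change of -0.74 (SE 0.68, 95% interval -2.28 to 0.80, adjusted p = 0.458) was -2.07 with an adjusted p of 0.0382 without replicate 6 and -0.13 with an adjusted p of 0.92 without HFD replicate 1. It was also smaller without HFD+Allantoin-H replicate 4 (-0.33) or 5 (-0.37). Orm3 was at 11.2, 15.2 and 5.10 CPM in HFD and at 5.06, 2.96 and 15.1 CPM in HFD+Allantoin-H, on 50 to 224 counts per library. Its log2 fold change was -0.44 (SE 0.58, 95% interval -1.77 to 0.88, adjusted p = 0.613). Single libraries moved it to -1.39 without HFD+Allantoin-H replicate 6, -0.77 without HFD replicate 3, -0.21 without HFD+Allantoin-H replicate 4, -0.045 without HFD+Allantoin-H replicate 5 and to -0.07 with HFD replicate 2 left out, none of them called. The 3 orosomucoids summed followed Orm1, at -0.81 (adjusted p = 0.085).

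Lipocalin 2, which binds the iron carriers of bacteria, is encoded by Lcn2 at chr2:32384633-32388252 (minus strand, GRCm38). Its levels were 120, 38.6 and 35.1 CPM in HFD replicates 1 to 3 and 15.3, 10.9 and 79.2 CPM in HFD+Allantoin-H replicates 4 to 6. A single library stood high in each group, and HFD+Allantoin-H replicate 6 was above 2 of the 3 HFD libraries. The log2 fold change was -0.87 (SE 0.74, 95% interval -2.54 to 0.79, adjusted p = 0.414). It was -2.29 with an adjusted p of 0.041 without HFD+Allantoin-H replicate 6 and -0.07 with an adjusted p of 0.96 without HFD replicate 1. It was -0.51 without HFD+Allantoin-H replicate 4 and -0.44 without replicate 5, so that single libraries moved the estimate widely.

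C-reactive protein binds phosphocholine on microbes and damaged cells. Crp (chr1:172698055-172833031, plus strand, GRCm38) was at 144, 194 and 224 CPM in HFD replicates 1 to 3 and at 271, 259 and 341 CPM in HFD+Allantoin-H replicates 4 to 6. All HFD libraries were below all HFD+Allantoin-H libraries, the opposite order to Hp. The difference was 1.55-fold, at a log2 fold change of 0.63 (SE 0.21, 95% interval 0.17 to 1.10), and the adjusted p of 0.0535 missed the threshold. DESeq2 (adjusted p = 0.0186) and limma-voom (adjusted p = 0.0431) called it, as did edgeR with scaling by library size alone (1.02, adjusted p = 0.0197). It was also called after removal of length and GC trends (0.59, adjusted p = 0.0261) and without HFD replicate 3 (0.79, adjusted p = 0.0243). It was not called without HFD replicate 1 or 2 (adjusted p = 0.104 and 0.094). Nor was it called without HFD+Allantoin-H replicate 4, 5 or 6 (adjusted p = 0.113, 0.107 and 0.175).

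The 10 genes ranked the HFD+Allantoin-H libraries alike. Replicate 6 had the highest level of its group for 10 of 10 genes, and replicate 5 the lowest for 9. By comparison, replicate 6 was the highest of its group for 34.7% of all tested genes and replicate 5 the lowest for 30.0%. A high replicate 6 was not particular to the 10 genes. Of 20 other positive acute phase genes that were tested, all but Itih3, Hamp and C3 were also highest there within the group. The summed level of that list was 17652, 17795 and 22865 CPM in replicates 4, 5 and 6. Saa1 and Saa2, and likewise Orm1, Orm2 and Orm3, may share reads and are not independent examples. The level in replicate 6 was 6.03 times the mean of replicates 4 and 5 for Lcn2, 5.57 times for Orm2, 3.77 times for Orm3 and 3.10 times for Saa1, and it was 1.29 times for Crp and 1.51 times for Saa4, the smallest ratios. The median of this ratio over all tested genes was 0.985, and 7.31% of them reached 1.5 and 0.680% reached 3. In HFD, replicate 1 was the highest for 6 of the 10 genes and for 37.0% of all tested genes, led by Lcn2 at 3.25 times the mean of replicates 2 and 3 and Orm2 at 2.58 times.

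The spread within groups differed widely among the 10 genes. The pooled within-group SD on the log2 scale was 1.28 for Lcn2, 1.19 for Orm2, 1.002 for Orm3, 0.94 for Saa2 and 0.88 for Saa1. Among the 7651 genes as abundant as the lowest of the 10 (mean of 8.59 CPM or more), the median SD was 0.24 and 0.928% exceeded that of Lcn2. Crp had the smallest SD of the 10, at 0.27, followed by Saa4 at 0.38, Hp at 0.41 and Orm1 at 0.45. Marker lists were read in the same 3 libraries, and they did not all have replicate 6 as the highest. In replicates 4, 5 and 6 the summed level was 10.2, 11.9 and 29.8 CPM for 4 monocyte markers, 6.52, 5.44 and 12.1 CPM for 12 neutrophil markers, 384, 414 and 429 CPM for 10 Kupffer cell and macrophage markers and 113, 63.9 and 148 CPM for 8 adipocyte markers. Replicate 6 had the lowest sum for cholangiocyte markers (4.77, 5.38 and 3.78 CPM), T and B cell markers (6.52, 3.90 and 2.97 CPM) and pancreatic acinar markers (24.9, 18.0 and 14.4 CPM). The 6 hepatocyte markers were divided, with Alb (54402, 59198 and 82145 CPM) and Ttr highest in replicate 6, Apoa1, Tat and Cps1 lowest there, and Apob between the other libraries. The part of these differences in the levels of the acute phase genes was not tested.

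**Figure D3:**
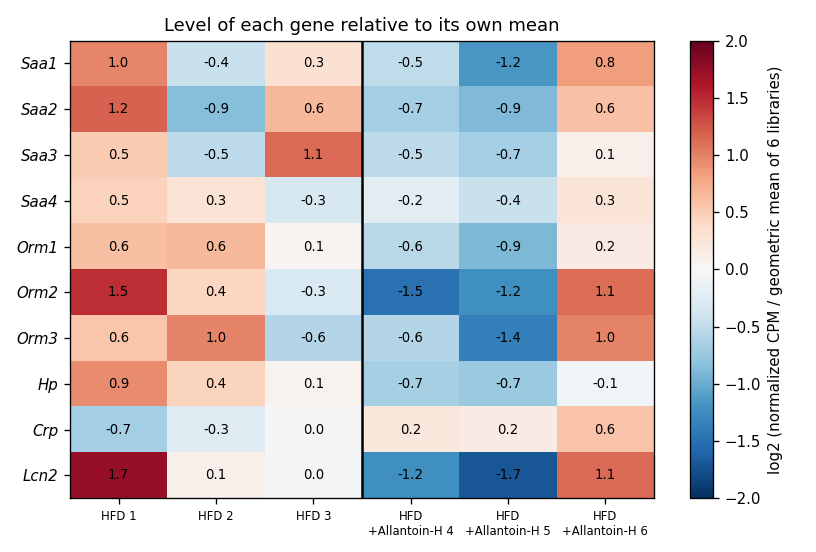
Level of each acute phase gene (rows) in each library (columns) as the log2 of its normalized CPM over the geometric mean of all 6 libraries, with HFD to the left of the black line and HFD+Allantoin-H to its right. HFD replicate 1 and HFD+Allantoin-H replicate 6 are the columns with most red cells, replicates 4 and 5 are blue except for Crp, and Lcn2 runs from 1.74 in HFD replicate 1 to -1.72 in HFD+Allantoin-H replicate 5.

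Per kilobase of transcript, Hp was the most abundant of the 10 genes in both groups, at 4095 ± 1258 CPM per kilobase in HFD and 2071 ± 573 in HFD+Allantoin-H (SD, n = 3 each). Orm1 followed at 925 ± 196 and 526 ± 209 CPM per kilobase. In HFD the order went on with Saa1 (225 ± 105 CPM per kilobase), Saa4 (185 ± 48.1), Saa2 (119 ± 70.4), Crp (110 ± 23.8), Lcn2 (70.5 ± 52.3), Orm2 (40.5 ± 25.1), Saa3 (19.9 ± 10.3) and Orm3 (13.6 ± 6.59). The ranges of Hp and Orm1 overlapped neither each other nor the next gene, and from Saa1 down each gene overlapped its neighbor. The HFD+Allantoin-H order differed only in the place of Crp, which stood next to Orm1 at 171 ± 26.2 CPM per kilobase, above Saa1 at 168 ± 121, and overlapped it. The 10 genes together took 0.506% to 0.699% of all counts in HFD and 0.367% to 0.605% in HFD+Allantoin-H.

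Promoters of 8 of the 10 genes were at hand from RefSeq (GRCm38.p6), as the 250 bases before and 50 bases after the start site, and those of Hp and Orm1 were not analysed here. The letters TTGCNNAA, a core of C/EBP sites, were found on either strand in 7 of the 8, all except Crp, while 10.8% of 32544 promoters held them. The letters TTCNNNGAA, a STAT core, were in 0 of 8 (8.33% of all promoters), and the kappaB consensus was also in 0 of 8 (8.49%). At such low shares 0 of 8 does not set these promoters apart from promoters at large. The type 2 interleukin-6 element CTGGGAA was in 1 of 8, Orm3, on the strand opposite to the gene at bases 10 to 16 after the start site (11.0%). None of the matches overlapped a match of another motif, and the Orm2 match reads as a match on both strands. Stretches of 60 bases around the C/EBP match, in capitals and on the strand of the gene, show its place in the 5 genes with the widest spread within groups.
Saa1, chr7:46743129-46743188, minus strand: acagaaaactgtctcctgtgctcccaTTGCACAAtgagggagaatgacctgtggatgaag
Saa2, chr7:46751624-46751683, plus strand: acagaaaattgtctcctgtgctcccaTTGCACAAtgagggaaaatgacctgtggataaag
Orm2, chr4:63362303-63362362, plus strand: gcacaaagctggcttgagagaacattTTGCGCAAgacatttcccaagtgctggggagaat
Orm3, chr4:63356011-63356070, plus strand: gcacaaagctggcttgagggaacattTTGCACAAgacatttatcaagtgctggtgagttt
Lcn2, chr2:32387922-32387981, minus strand: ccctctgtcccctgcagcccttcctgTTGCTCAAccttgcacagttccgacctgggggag

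The match lay at bases -182 to -175 from the start site in Saa1, -183 to -176 in Saa2, -120 to -113 in Orm2, -121 to -114 in Orm3 and -216 to -209 in Lcn2. Saa3 held it on the opposite strand at -99 to -92, and Saa4 held it at -245 to -238 and, on the opposite strand, at -52 to -45. The 250 bases before the start site were 94.8% identical between Saa1 and Saa2 and 85.9% between Orm2 and Orm3, so that these pairs are not independent examples. A match of letters is a description of the sequence and does not show that a factor binds there. Nor does the lack of a match show that no factor binds.

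The genes that act upstream were read from lists of the known pathway. For this and the later lists, 11.3% of all tested genes were called higher and 13.0% lower in edgeR. Of 20 signaling and transcription factor genes, 19 were tested, of which 4 rose, 4 fell and 11 did not pass the threshold, with a median log2 fold change of -0.23. Cebpb, which encodes a C/EBP factor induced by interleukin-6, had the smallest p-value of the list. It was at 272, 242 and 258 CPM in HFD and at 87.6, 106 and 120 CPM in HFD+Allantoin-H, and fell by 1.30 on the log2 scale (SE 0.17, adjusted p = 0.0034 in edgeR). The groups stood far apart against their spread. Myd88, the adapter of the interleukin-1 and Toll-like receptors, fell by 0.80 (adjusted p = 0.0118), and the NF-kappaB subunit genes Nfkb2 and Rela fell by 1.12 (adjusted p = 0.0152) and 0.83 (adjusted p = 0.0334). With scaling by library size alone these 3 were not called (-0.37, -0.70 and -0.43). Without HFD+Allantoin-H replicate 4 neither Myd88 (adjusted p = 0.0587) nor Nfkb2 (adjusted p = 0.0706) was called, nor was Myd88 without replicate 5 (adjusted p = 0.0623) or Nfkb2 without replicate 6 (adjusted p = 0.0617). Among the fits with 1 library left out, Rela kept its call only without HFD replicate 2, and its adjusted p was 0.0594 to 0.122 in the others. After removal of length and GC trends its adjusted p was 0.0924 (-0.67), while DESeq2 (adjusted p = 0.00901) and limma-voom (adjusted p = 0.0391) called it lower.

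Among those that rose, the glucocorticoid receptor gene Nr3c1 did so by 0.60 on the log2 scale (adjusted p = 0.0258) and the kinase gene Jak1 by 0.54 (adjusted p = 0.0303). Both calls were lost without HFD replicate 2 (adjusted p = 0.0673 and 0.0652), without any 1 HFD+Allantoin-H library (adjusted p = 0.071 to 0.115) and after removal of length and GC trends (0.30 and 0.31). Stat3, the main transcription factor downstream of interleukin-6, was at 83.1, 82.3 and 85.0 CPM in HFD and at 63.0, 78.1 and 82.3 CPM in HFD+Allantoin-H. Its log2 fold change was -0.16 (adjusted p = 0.486), and 0.25 with scaling by library size alone. Socs3, the feedback inhibitor that STAT3 induces, was at 29.0, 13.8 and 30.7 CPM in HFD and at 26.1, 23.9 and 27.3 CPM in HFD+Allantoin-H (log2 fold change 0.07, adjusted p = 0.877), and its estimate was -0.21 without HFD replicate 2. The remaining factors fixed for naming did not pass either, namely Cebpa (0.22, adjusted p = 0.425), Cebpd (-0.84, adjusted p = 0.0663), Nfkb1 (-0.45, adjusted p = 0.16) and the NF-kappaB inhibitor gene Nfkbia (-0.57, adjusted p = 0.0637). Cebpd was called lower by DESeq2 (adjusted p = 0.0367) and by edgeR with no filter (adjusted p = 0.00781), and also when HFD replicate 1 (adjusted p = 0.034) or HFD+Allantoin-H replicate 6 (adjusted p = 0.0496) was left out. Without HFD replicate 2 or 3 its adjusted p was 0.136 and 0.133, and without HFD+Allantoin-H replicate 4 or 5 it was 0.212 and 0.202. Nfkbia was called lower only without HFD replicate 1 (adjusted p = 0.0456) and Nfkb1 only without HFD replicate 2 (adjusted p = 0.0336). With scaling by library size alone Cebpd was at -0.47 (adjusted p = 0.297). Nfkbia was then at -0.17 (adjusted p = 0.606) and Nfkb1 at -0.04 (adjusted p = 0.913).

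Of 17 genes for inducing cytokines and their receptors, 12 were tested, of which 2 rose, 1 fell and 9 did not pass, with a median log2 fold change of 0.08. The cytokine genes Il6, Il22 and Osm had at most 3 counts in every library and were not measurable at this depth, and Lif and Tnf did not pass the filter. The receptor genes of interleukin-6 rose, Il6st from 57.5 ± 5.43 to 104 ± 18.4 CPM (log2 fold change 0.85, adjusted p = 0.0118) and Il6ra from 26.5 ± 3.77 to 43.8 ± 9.72 CPM (0.72, adjusted p = 0.0347). The Il6ra call was lost without HFD replicate 1 or 2 or HFD+Allantoin-H replicate 4 or 5 (adjusted p = 0.0774 to 0.135) and after removal of length and GC trends (0.62), and that of Il6st without replicate 5 (adjusted p = 0.0633). Il1r1, the signaling receptor of interleukin-1, fell from 103 ± 39.5 to 29.4 ± 6.91 CPM, by 1.81 on the log2 scale (adjusted p = 0.00498).

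**Figure D4:**
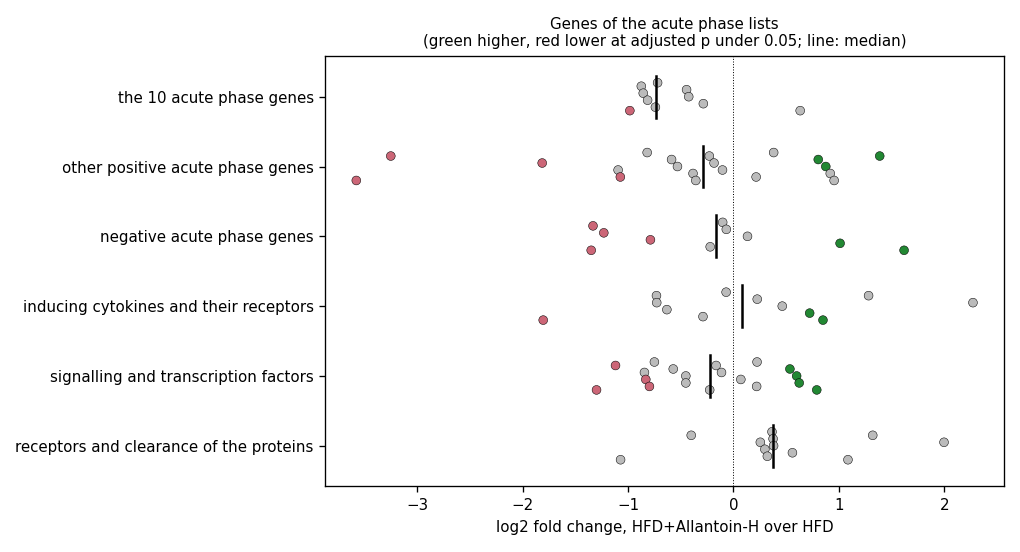
Log2 fold change, HFD+Allantoin-H over HFD (horizontal axis), of every tested gene of the 10 acute phase genes and of 5 further lists (rows), 1 point per gene, with green for higher, red for lower and grey for not past the adjusted threshold, and a black line at the median. The 10 acute phase genes have the lowest median of the 6 rows, at -0.73, with 1 red point, whereas the other positive acute phase genes include both green and red points.

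Other positive acute phase genes, those whose plasma proteins rise in the response, did not move one way. Of 22 genes 20 were tested, of which 3 rose, 4 fell and 13 did not pass, with a median log2 fold change of -0.29, and A2m and Ptx3 had at most 3 counts per library. The protease inhibitor genes Serpina3m and Serpina3n rose by 1.39 (adjusted p = 0.00567) and 0.80 (adjusted p = 0.016) on the log2 scale, and C3, the central complement component, rose by 0.88 (adjusted p = 0.0159). Serpina3n and C3 were not called without HFD+Allantoin-H replicate 5 (0.79 and 0.82), nor was Serpina3n without replicate 6 (0.70). The metallothionein genes, whose products bind zinc and copper, fell furthest. Mt1 was at 455, 105 and 671 CPM in HFD and at 34.5, 22.5 and 72.3 CPM in HFD+Allantoin-H, a fall by 3.25 on the log2 scale (adjusted p = 0.00996), and Mt2 fell by 3.58 (adjusted p = 0.0112). Mt1 was not called without HFD+Allantoin-H replicate 5 (-2.94, adjusted p = 0.0508), nor Mt2 without replicate 4 (-3.48, adjusted p = 0.0536). The other called genes of the list, Lrg1 (-1.07, adjusted p = 0.0253) and Hamp, which encodes hepcidin (-1.81, adjusted p = 0.0263), were named after their values were seen.

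Negative acute phase genes, whose plasma proteins fall in the response, also went both ways. Of 10 tested, 2 rose, 4 fell and 4 did not pass, with a median log2 fold change of -0.16. Apom, an apolipoprotein of high-density lipoprotein, rose by 1.62 (adjusted p = 0.00292) and the corticosteroid carrier gene Serpina6 by 1.01 (adjusted p = 0.00601). Transferrin (Trf) fell by 1.33 (adjusted p = 0.00437), fetuin-B (Fetub) by 1.35 (adjusted p = 0.00511) and Apoa1, the main protein of high-density lipoprotein, by 1.23 (adjusted p = 0.0079), and Ttr, named after its values were seen, by 0.79 (adjusted p = 0.0211). Of 12 genes for receptors and clearance of these proteins, among them the haptoglobin-hemoglobin receptor gene Cd163 (log2 fold change 0.32, adjusted p = 0.565), edgeR called 0. An unadjusted p under 0.05 was reached by 3, all higher, where 18.6% of all tested genes were higher at that p. DESeq2 called 1 higher, and limma-voom called 0.

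Markers of cells that could add to these levels were read in the same libraries. Of 12 neutrophil markers 4 were tested, and Csf3r fell (-1.50, adjusted p = 0.0491) while the others did not pass in edgeR. DESeq2 and limma-voom each called 3 of the 4 lower, where of all 12795 tested genes they called 1966 and 1596 lower. The summed level of the 12 was 13.5 to 21.7 CPM in HFD and 5.44 to 12.1 CPM in HFD+Allantoin-H, Ly6g had at most 2 counts per library, and Camp and Ngp had at most 5. Of 10 Kupffer cell and macrophage markers, Adgre1, Cd5l and Vsig4 rose and 7 did not pass, and the sum was 159 to 370 CPM in HFD and 384 to 429 CPM in HFD+Allantoin-H. The sum of 4 cholangiocyte markers was 8.99 to 48.9 CPM in HFD and 3.78 to 5.38 CPM in HFD+Allantoin-H, and that of 8 adipocyte markers was 650 CPM in HFD replicate 2 and 63.9 to 148 CPM in the other libraries. The 4 monocyte markers summed to 10.8 to 14.6 CPM in HFD and 10.2 to 29.8 CPM in HFD+Allantoin-H, 6 T and B cell markers to 4.35 to 7.90 and 2.97 to 6.52 CPM, and 5 pancreatic acinar markers to 12.8 to 26.4 and 14.4 to 24.9 CPM. The 6 hepatocyte markers split evenly, with 2 that rose and 2 that fell. The part of other cells in the levels of the 10 acute phase genes was not tested.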

How the data were processed

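The deposited table holds whole-number read counts per gene for 6 mouse liver libraries, made by the authors. GRCm38 and mm10 are named in the submitters' processing notes. The aligner, the counting tool and its use of strand are not given in the sources used here. Features without an Ensembl identifier (429, at 0.197% to 0.306% of counts) were left out. Symbols and positions came from GENCODE M21, in which 54495 of 54532 identifiers were found, and no sample column was left unused.

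Counts were tested with edgeR 4.0.16 in R 4.3.3 by TMM scaling, filterByExpr, the quasi-likelihood test with group as the only term and Benjamini-Hochberg adjustment over 12795 genes (threshold 0.05). SE values were derived from the F statistic, and the procedure was tested on simulated data. Alternatives were RLE scaling, library size alone, DESeq2 1.42.0, limma-voom (limma 3.58.1), no filter, CPM over 1 in 3 libraries, removal of length and GC trends (splines, 5 degrees of freedom), no mitochondrial chromosome, summed paralogs, each library left out, and a threshold of 0.01. The acute phase genes and all lists were chosen with earlier results of these data known. All 10 genes are described. From each further list the called genes with the 5 smallest p-values and 12 regulators and receptors were named. No member shares exon bases with another gene. Near-identical paralogs may share reads. Totals of 11326372 to 14601457 counts set the depth, and a gene with at most 3 counts in every library was called not measurable.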

Additional observations from a re-analysis of the deposited data

How the results depend on the processing

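Of the results for named genes under single alternatives, 452 kept their direction and their side of the threshold, 51 kept the direction and were no longer called, 23 became called and 4 reversed. The reversals were Saa1 (0.012), Saa4 (0.15) and Stat3 (0.25) with scaling by library size alone, and Socs3, whose estimate ran from -0.21 without HFD replicate 2 to 0.27 without HFD replicate 3 and was 0.49 with scaling by library size alone, none of them called before or after. Scaling by library size alone raised the median of all genes by 0.41 on the log2 scale, so that 82.4% of calls were higher against 46.5% with TMM. It called 3162 genes higher and 674 lower in all, 21 and 8 pathway list genes, and 1 and 0 of the 10 acute phase genes (main test 1446 and 1666, 11 and 13, and 0 and 1).

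Higher and lower calls among the 10 acute phase genes were 1 and 2 in DESeq2, 1 and 1 in limma-voom, 1 and 6 with no filter, where 23635 genes were tested and Crp was higher and Hp, Orm1, Orm2, Lcn2, Saa2 and Saa3 lower, 1 and 0 after removal of length and GC trends, and 0 and 0 at an adjusted p under 0.01. Of all tested genes, DESeq2 called 1747 higher and 1966 lower, and limma-voom 1523 and 1596. The numbers were 1822 and 2134 with no filter and 1320 and 1540 after removal of trends. With no filter Lcn2, whose groups overlapped, had a log2 fold change of -0.83 with an adjusted p of 0.00156. In the main test it had -0.87 with an adjusted p of 0.414. Pathway list genes called higher were 17 with no filter and 7 after removal of trends. At an adjusted p under 0.01, 3 list genes were higher and 6 lower, and 443 and 573 of all genes. Leaving out 1 library gave 0 to 1 acute phase genes higher and 0 to 4 lower, 3 to 13 list genes higher and 6 to 16 lower, and 460 to 1773 of all genes higher and 564 to 2008 lower. The 4 lower acute phase genes, Hp, Orm1, Orm2 and Lcn2, came without HFD+Allantoin-H replicate 6, and the lowest counts of all genes without HFD+Allantoin-H replicate 5. The cause of these changes was not tested.

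No paired analysis was possible because the groups share no replicate number (HFD 1 to 3, HFD+Allantoin-H 4 to 6). With 3 libraries per group, exact permutation of the labels for 1 gene gives no p under 0.1.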
